A study of Mus musculus with 8 samples.

Results

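Gene expression in the brains of mice given paclitaxel and then ABT263 was compared with that of vehicle mice in coronal brain sections. The sections were measured by Visium spatial transcriptomics, in which tissue RNA is captured on an array of barcoded spots. The 2 PTX+ABT263-labelled sections were compared with the 2 vehicle sections (Control), which are 4 of the 8 sections of the series and hold 10421 of its 21328 kept spots. Unique molecular identifiers (UMIs) were summed per section over the spots with at least 200 genes and at most 30% mitochondrial UMIs. The comparison used the 30349 autosomal and mitochondrially encoded genes of the 32285 features, of which 16107 had enough UMIs to be tested in whole sections.

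Paclitaxel (PTX) is a cancer drug that stabilises microtubules and blocks cell division. ABT263 (navitoclax) inhibits the anti-apoptotic proteins BCL-2, BCL-xL and BCL-w and is used as a senolytic, an agent that kills senescent cells, which survive partly through these proteins. Senescent cells have left the cell cycle, often express the cell cycle inhibitor p16 encoded by Cdkn2a, and secrete inflammatory factors and proteases.

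All mice were labelled wild-type p16-3MR, male and 9-10 months old. They carried the 3MR transgene, a fusion of a red fluorescent protein and a viral thymidine kinase driven by the p16 promoter, so that ganciclovir (GCV) kills the cells that express it. Control mice received DMSO plus saline. PTX mice received 5 mg/kg/day intraperitoneally in 2 cycles of 5 days that lay 7 days apart. PTX+ABT263 mice later also received 1.5 mg/kg/day ABT263, and PTX+GCV mice 25 mg/kg/day GCV, on 5 days in each of 2 cycles that lay 2 weeks apart. Brains were taken 6 months after PTX and cut at 10 μm. A spot is 55 μm wide and can hold several cells of different types. The labels do not say whether each section is from a different mouse, so p-values measure the spread between sections, which may be technical. All 8 sections carried 1 batch label.

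Both PTX+ABT263-labelled sections went against their label of male mice. Xist, which is transcribed from the inactive X chromosome of female cells, was at 19.7 and 19.3 CPM (counts per 1000000 UMIs) in them and at 0 in both Control sections, where a count of 0 allows up to 0.151 and 0.0905 CPM. The Y-linked gene Ddx3y was at 0.444 and 0 CPM in them against 35.8 and 33.1 CPM in Control. Treatment and sex can therefore not be told apart in this comparison, and genes of chromosomes X and Y were left out. The 4 sections held 19870666 and 33160865 UMIs (Control) and 38298926 and 36097182 UMIs (PTX+ABT263-labelled sections). The share of mitochondrial UMIs was 11.8% and 13.9% in Control and 14.3% and 15% in the PTX+ABT263-labelled sections. The synaptic gene Snap25 was at 2619 to 2849 CPM in these sections and the liver gene Alb at no more than 0.0554 CPM.

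In whole sections, 15 genes passed an adjusted p of 0.05, 10 of them higher (0.0621% of the genes tested) and 5 lower (0.031%) in the PTX+ABT263-labelled sections. The higher genes were 5 genes of the habenula list (Chrna3, Chrnb4, Tac2, Gpr151 and Pou4f1), Lamp5, Cort, Serpina3n, Ighm and Cox8b. The lower genes were Junb, Dusp1, Ccn1, Ddit4 and Gadd45g, which all respond quickly to neuronal activity or stress. At an unadjusted p of 0.05, 818 genes were higher (5.08%) and 767 lower (4.76%), and the median log2 fold change over all genes was -0.00017. The groups did not overlap for 42.2% of all genes tested in whole sections and 43.4% of those tested in the isocortex. With total counts in place of TMM scaling there were 14 higher and 20 lower genes, and with DESeq2 there were 32 and 25. The counts also turned on single sections. Without Control section 1 there were 14 higher and 17 lower genes, without Control section 2 there were 7 and 12, and without a PTX+ABT263-labelled section there were 4 and 3 (section 1) or 1 and 1 (section 2). In a bulk sum over spots, fewer cells of a type and less RNA per cell cannot be told apart.

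**Figure D1:**
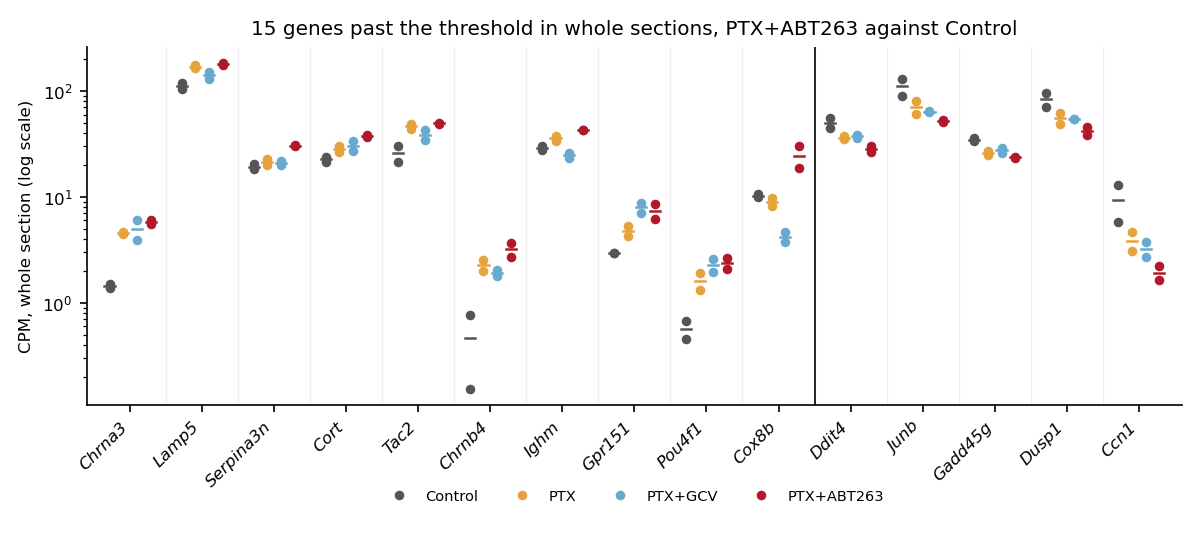
Levels of the 15 genes past the threshold in each of the 8 sections (CPM after TMM scaling, log axis), with a point per section and a line at each group's mean. The 2 PTX+ABT263-labelled sections (red) lie beyond both Control sections (grey) for each of the 15 genes.

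The habenula is a small paired nucleus above the thalamus that relays signals from the forebrain to the midbrain and is known for aversion and nicotine withdrawal. Its medial part holds the nicotinic receptor subunits encoded by Chrna3 and Chrnb4 and the peptide neurokinin B encoded by Tac2. The level of Chrna3 was 1.49 and 1.39 CPM in the Control sections and 5.61 and 5.99 CPM in the PTX+ABT263-labelled sections. Its log2 fold change was 2.02 ± 0.23 (SE, edgeR's quasi-likelihood test, adjusted p = 0.0252). Chrnb4, which lies next to Chrna3 on the same strand of chromosome 9 (GRCm38, 55028154 to 55048779 and 55010111 to 55026562), was at 0.155 and 0.774 CPM in Control and 2.73 and 3.66 CPM in the PTX+ABT263-labelled sections. The groups did not overlap for either subunit, and for Chrnb4 the Control level rested on 3 and 24 UMIs (log2 fold change 2.6 ± 0.39, edgeR adjusted p = 0.0434).

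Tac2 rose from 30.3 and 21.2 CPM to 50.2 and 49.1 CPM (log2 fold change 0.96 ± 0.14, edgeR adjusted p = 0.0378). Pou4f1, which encodes the transcription factor Brn3a of habenular neurons, rose from 0.670 and 0.451 CPM to 2.07 and 2.64 CPM (2.11 ± 0.33, edgeR adjusted p = 0.0434). Gpr151, an orphan receptor of habenular axons, rose from 2.94 and 2.93 CPM to 6.14 and 8.54 CPM (1.32 ± 0.20, edgeR adjusted p = 0.0434). Of the 12 habenula genes tested, 5 passed the adjusted threshold and 10 an unadjusted p of 0.05, all higher, and their median log2 fold change was 1.12. In isocortex spots none of the 9 habenula genes tested passed an unadjusted p of 0.05, and their median was -0.10.

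The number of spots that fell in the habenula moved with these genes. The cluster whose leading genes are habenula markers held 11 and 13 spots in Control and 24 and 32 spots in the PTX+ABT263-labelled sections, or 0.469% and 0.506% against 0.852% and 1.19% of the kept spots. The groups did not overlap, but an exact two-sided permutation test of 2 sections against 2 cannot go below p = 0.333, which it gave. The PTX sections held 22 and 18 such spots and the PTX+GCV sections 27 and 34. Over the 8 sections the cluster held 66.6% of the UMIs of Chrna3, 78.1% of Chrnb4, 83.4% of Pou4f1, 74.5% of Gpr151 and 31.5% of Tac2. After the spots of the habenula and choroid plexus clusters were left out, none of the 5 genes passed, and the log2 fold change of Chrna3 was 0.49 (edgeR adjusted p = 0.613). With the same number of spots of each cluster drawn from every section, Chrna3 still passed (1.78, edgeR adjusted p = 0.0361), while Tac2 was at 0.93 (edgeR adjusted p = 0.0559) and Gpr151 at 0.96 (edgeR adjusted p = 0.271).

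Levels within the habenula spots differed between genes. Gpr151 was at 817 and 287 CPM within the Control habenula spots and at 460 and 452 CPM within those of the PTX+ABT263-labelled sections, so that the groups overlapped. Tac2 was at 0 and 183 CPM in Control against 1277 and 1323 CPM, and Chrna3 at 0 and 40.1 CPM against 317 and 301 CPM. The habenula spots of Control section 1 held 39438 UMIs, at which a count of 0 allows up to 76.1 CPM. Tac2 and Chrna3 mark the medial habenula, while Gpr151 and Pou4f1 are also known from the lateral part. Which part of the nucleus a section was cut through was not tested.

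**Figure D2:**
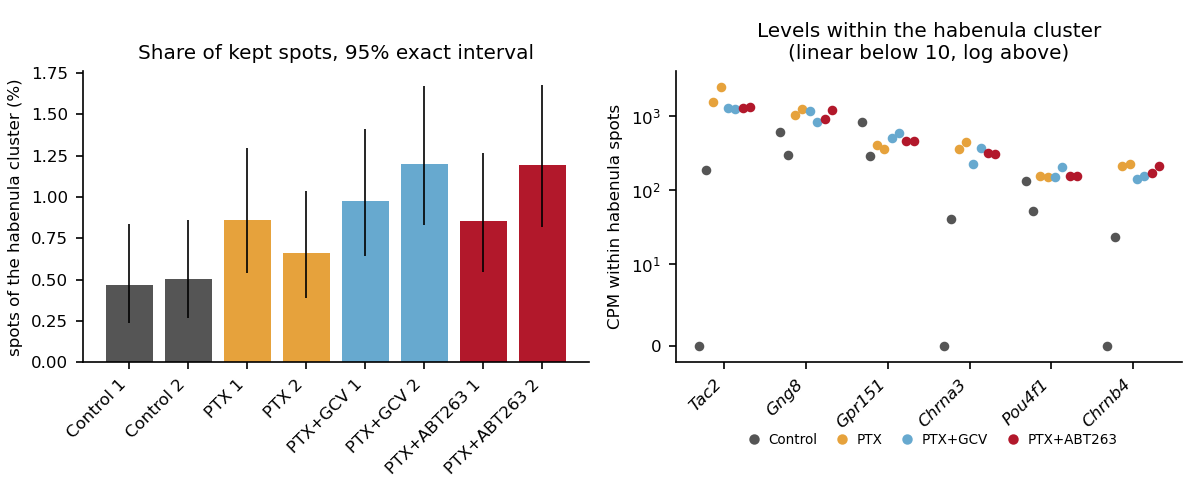
Left, percent of each section's kept spots in the habenula cluster, with exact 95% binomial intervals that cover counting error only. Right, levels of 6 habenula genes within those spots (CPM, linear below 10 and log above). Both Control sections (grey) have smaller shares than the sections of the other groups, and Tac2, Chrna3 and Chrnb4 are at 0 within the habenula spots of Control section 1.

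Lamp5 and Cort, which are expressed in cortical neurons, also rose. Lamp5, a lysosome-associated membrane protein of upper-layer cortical neurons and of neurogliaform interneurons, was at 120 and 104 CPM in Control and 178 and 183 CPM in the PTX+ABT263-labelled sections (log2 fold change 0.69 ± 0.09, edgeR adjusted p = 0.0275). It rose in isocortex spots as well, from 323 and 290 CPM to 473 and 471 CPM (0.62 ± 0.09, edgeR adjusted p = 0.00585). Cort, which encodes the inhibitory peptide cortistatin of interneurons, was at 21.5 and 23.9 CPM in Control and 38.5 and 36.6 CPM in the PTX+ABT263-labelled sections (0.72 ± 0.10, edgeR adjusted p = 0.0378). Of the 25 cortical layer markers tested 1 passed, 2 were higher and 3 lower at an unadjusted p of 0.05, and the median was -0.0091. Of the 19 other interneuron genes 1 passed, 2 were higher and 4 lower, and the median was -0.028. The isocortex made up 24.5% and 18.4% of spots in Control and 25.8% and 23.9% in the PTX+ABT263-labelled sections. Lamp5 was a leading gene of the isocortex cluster led by Gm765. That cluster made up 10.4% and 6.34% of spots in Control against 11.3% and 10.9%, without overlap. Whether this share moved the level of Lamp5 was not tested.

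Serpina3n, a secreted serine protease inhibitor that is a marker of reactive astrocytes, was at 20.4 and 18.2 CPM in Control and 30.6 and 30.2 CPM in the PTX+ABT263-labelled sections (log2 fold change 0.66 ± 0.09, edgeR adjusted p = 0.0346). It was at 20.2 and 22.7 CPM in PTX and 20.2 and 21.9 CPM in PTX+GCV, below both PTX+ABT263-labelled sections. In hypothalamus spots Serpina3n was at 34.3 and 19.96 CPM in Control against 58.2 and 50.1 CPM, and in the thalamus at 3.94 and 5.93 CPM against 11.6 and 11.4 CPM. It overlapped between the groups in the isocortex, hippocampus and fiber tracts. Of the 10 regions where it had at least 20 UMIs in the 4 sections, both PTX+ABT263-labelled sections lay above both Control sections in 4, while this held for 13.4% of all gene and region pairs and the opposite order for 24.5%. Serpina3n had passed in sums that include these regions, so the regions add no separate support. The difference from PTX alone was 0.50 on the log2 scale and did not pass (edgeR adjusted p = 0.0720), while that from PTX+GCV was 0.53 and passed (edgeR adjusted p = 0.0230).

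Ighm and Cox8b completed the higher genes. Ighm, the constant region of immunoglobulin mu heavy chain, rose from 27.6 and 30.4 CPM to 42.4 and 42.7 CPM (log2 fold change 0.55 ± 0.08, edgeR adjusted p = 0.0434), and 47.8% of its UMIs lay in the isocortex cluster led by Trbc2. Within isocortex spots the groups overlapped, at 59.2 and 74.1 CPM in Control against 81.5 and 65.5 CPM (without TMM scaling). Of 9 regions, Ighm was higher without overlap in 4 and lower in 1, against 13.4% and 24.5% of all gene and region pairs. In the hypothalamus it was at 17.4 and 15.3 CPM against 30.8 and 22.5 CPM. As for Serpina3n, the regions add no separate support. Over 15 alternative fits the whole-section log2 fold change of Ighm ran from 0.47 to 0.63, and Ighm did not pass in 8 of them. Cox8b, a subunit of cytochrome c oxidase, was at 10.6 and 10.0 CPM in Control and 30.4 and 18.6 CPM in the PTX+ABT263-labelled sections (1.26 ± 0.20, edgeR adjusted p = 0.0434). The choroid plexus cluster held 68.4% of its UMIs and counted 12 and 12 spots in Control against 27 and 11. Within those spots Cox8b was at 855 and 1033 CPM in Control against 1588 and 1538 CPM. It was higher than in Control within isocortex spots too, at 5.64 and 6.76 CPM against 1.98 and 2.45 CPM (1.46 ± 0.29, edgeR adjusted p = 0.0417). The Control levels there rested on 10 and 17 UMIs. The PTX sections were at 5.01 and 4.71 CPM and the PTX+GCV sections at 3.04 and 2.38 CPM. Of the 15 choroid plexus genes tested in isocortex spots, 8 were higher and 0 lower at an unadjusted p of 0.05. None of the 15 passed, and their median log2 fold change was 1.16. Of all genes tested in the isocortex, 6.58% were higher at that threshold. Whether choroid plexus RNA reached isocortex spots was not tested.

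Of the 5 genes that fell, Junb and Dusp1 belong to the lists of immediate early genes. Immediate early genes are switched on within minutes of calcium entry or growth factor signals from transcription factors already present, and include the Fos and Jun subunits of AP-1, the Egr and Nr4a factors and the synaptic regulator Arc. Junb was at 131 and 90.7 CPM in Control and 51.3 and 53.7 CPM in the PTX+ABT263-labelled sections (log2 fold change -1.08 ± 0.15, edgeR adjusted p = 0.0378). Dusp1, a phosphatase that switches off MAP kinases, was at 96.1 and 70.5 CPM against 45.9 and 38.3 CPM (-0.98 ± 0.14, edgeR adjusted p = 0.0390). Ccn1, a secreted matrix protein induced by serum and stretch, was at 13.0 and 5.80 CPM against 2.20 and 1.65 CPM (-2.24 ± 0.36, edgeR adjusted p = 0.0497). Control section 1 was the highest of the 4 for all 3 genes, and neither Dusp1 (-0.75, edgeR adjusted p = 0.0724) nor Ccn1 (-1.59, edgeR adjusted p = 0.0724) passed when it was left out. Without PTX+ABT263-labelled section 2 the edgeR adjusted p was 0.217 for Dusp1 and 0.243 for Ccn1, and without section 1 it was 0.0686 and 0.192.

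The other pair of lower genes respond to stress. Ddit4, an inhibitor of mTORC1 induced by glucocorticoids and energy stress, was at 44.7 and 55.3 CPM in Control and 26.8 and 30.6 CPM in the PTX+ABT263-labelled sections (log2 fold change -0.81 ± 0.10, edgeR adjusted p = 0.0275). Here Control section 2 was the highest. Gadd45g, a growth arrest and DNA damage gene, was at 34.1 and 35.7 CPM against 23.6 and 23.6 CPM (-0.57 ± 0.08, edgeR adjusted p = 0.0378). The groups did not overlap for either gene. In the list of p53 targets and cell cycle inhibitors Gadd45g was the gene that passed of 22 tested, 4 were lower and 1 higher at an unadjusted p of 0.05, and the median was -0.0089.

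Of the 6 Fos and Jun genes tested in whole sections, Junb passed, 4 were lower at an unadjusted p of 0.05 and none higher, with a median log2 fold change of -0.37. Fos was at 80.0 and 63.7 CPM in Control and 44.2 and 35.3 CPM in the PTX+ABT263-labelled sections, which did not pass (-0.85, edgeR adjusted p = 0.0566). Of the 18 other immediate early genes, Dusp1 passed, 8 were lower and 2 higher at an unadjusted p of 0.05, with a median of -0.32. Arc was at 168 and 109 CPM against 72.3 and 77.4 CPM and did not pass in whole sections (-0.89, edgeR adjusted p = 0.15). Of the 19 BCL-2 family genes none passed, with a median of -0.048.

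The same contrast within the isocortex, where 13900 genes were tested in 574 and 472 Control spots and 728 and 641 spots of the PTX+ABT263-labelled sections, gave 14 higher genes (0.101%) and 22 lower genes (0.158%). At an unadjusted p of 0.05, 914 genes were higher (6.58%) and 874 lower (6.29%), and the median over all genes was -0.0079. With total counts in place of TMM there were 18 higher and 240 lower genes, and with DESeq2 there were 89 and 22. Arc fell from 462 and 325 CPM to 171 and 168 CPM (log2 fold change -1.21 ± 0.14, edgeR adjusted p = 0.00105). Junb fell from 288 and 156 CPM to 70.3 and 71.4 CPM (-1.64 ± 0.21, edgeR adjusted p = 0.00271). Each Control section lay above both PTX+ABT263-labelled sections, and Control section 1 was the higher Control section for both genes. Without Control section 1 there were 8 higher and 21 lower genes, without Control section 2 there were 63 and 102, and without a PTX+ABT263-labelled section there were 3 and 9 (section 1) or 2 and 3 (section 2). Among all 36 genes, 7 had also passed in whole sections, namely Junb, Dusp1, Ccn1, Ddit4, Lamp5, Cort and Cox8b.

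Of the 18 other immediate early genes tested in the isocortex 8 passed, all lower, with a median log2 fold change of -0.46, and of the 6 Fos and Jun genes 3 passed, all lower, with a median of -0.68. Egr4 and Egr2, zinc finger factors induced by synaptic activity, fell from 120 and 130 CPM to 84.3 and 77.9 CPM and from 23.5 and 22.2 CPM to 10.9 and 7.06 CPM (edgeR adjusted p = 0.0131 for each). For Egr4, Egr2 and Fosb the Control sections lay close together. For Btg2, an antiproliferative early gene, they lay apart at 69.4 and 20.2 CPM, against 8.55 and 8.39 CPM in the PTX+ABT263-labelled sections (-2.34 ± 0.39, edgeR adjusted p = 0.0169). Npas4, a neuronal factor induced by calcium, was likewise at 72.6 and 28.5 CPM against 19.6 and 16.5 CPM (-1.44 ± 0.28, edgeR adjusted p = 0.0417). Without Control section 1 Btg2 (-1.25, edgeR adjusted p = 0.0715), Fos, Dusp1, Nr4a1, Npas4, Ier2 and Ccn1 no longer passed, while Arc (-0.94, edgeR adjusted p = 0.00147) and Junb did.

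**Figure D3:**
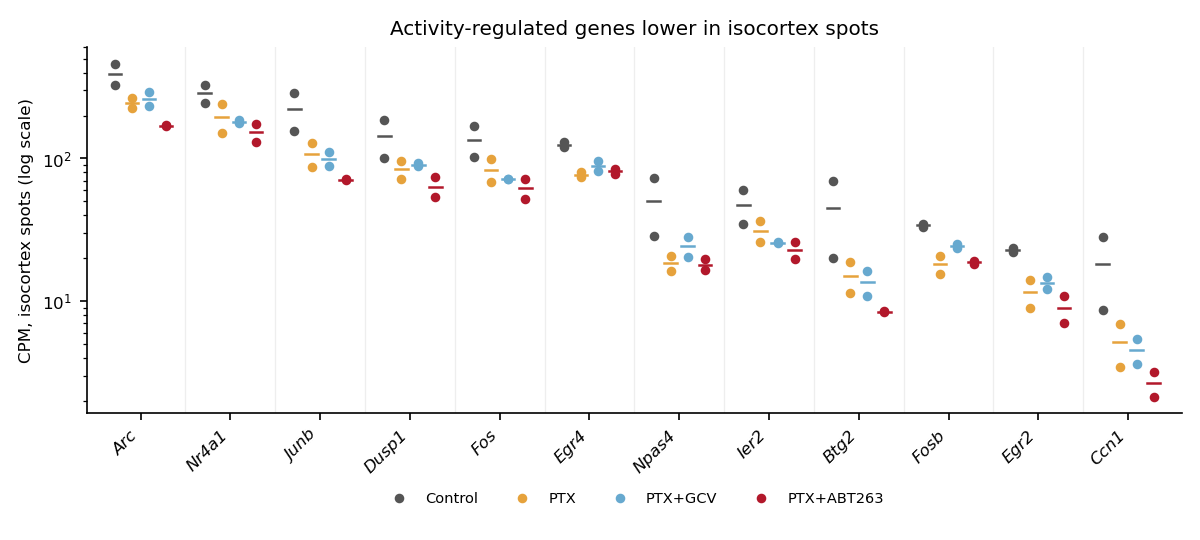
Levels of 12 activity-regulated genes in the isocortex spots of each section (CPM after TMM scaling, log axis), chosen among those past the threshold after their values were seen, with a point per section and a line at each group's mean. Control section 1 lies far above Control section 2 for Btg2, Npas4 and Ccn1, and the PTX and PTX+GCV sections lie below the Control mean for all 12 genes.

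Many immediate early genes carry binding sites for the factor CREB close to their start sites, with the full palindrome TGACGTCA or its 5-base part TGACG, and the promoters of 4 of the genes that fell together are shown for that reason. They are the 200 bases before the start site as RefSeq gives it on GRCm38.p6, read 5′ to 3′ on the gene's own strand, with TGACG, its reverse complement CGTCA or the palindrome in capitals.
Junb, chr8:84978749-84978948, minus strand: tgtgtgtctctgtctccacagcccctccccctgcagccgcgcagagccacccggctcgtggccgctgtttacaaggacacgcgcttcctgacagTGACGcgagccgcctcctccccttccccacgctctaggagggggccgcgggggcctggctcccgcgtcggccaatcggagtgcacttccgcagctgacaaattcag
Fos, chr12:85473690-85473889, plus strand: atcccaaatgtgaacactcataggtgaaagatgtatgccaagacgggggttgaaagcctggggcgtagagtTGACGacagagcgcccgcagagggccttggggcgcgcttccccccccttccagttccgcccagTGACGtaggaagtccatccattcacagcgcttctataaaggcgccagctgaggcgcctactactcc
Dusp1, chr17:26508473-26508672, minus strand: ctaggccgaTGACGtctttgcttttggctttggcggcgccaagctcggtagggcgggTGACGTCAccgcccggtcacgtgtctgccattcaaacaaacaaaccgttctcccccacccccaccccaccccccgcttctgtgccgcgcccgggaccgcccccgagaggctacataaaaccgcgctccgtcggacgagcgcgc
Btg2, chr1:134079156-134079355, minus strand: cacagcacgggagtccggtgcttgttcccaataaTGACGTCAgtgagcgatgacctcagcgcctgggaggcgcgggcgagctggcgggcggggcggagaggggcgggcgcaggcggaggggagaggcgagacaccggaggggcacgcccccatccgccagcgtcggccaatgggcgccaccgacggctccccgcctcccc

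In these stretches the 5-base motif began 106 bases before the start of Junb, 129 and 66 bases before that of Fos, and 191 bases before that of Dusp1. The palindrome began 143 bases before the start of Dusp1 and 166 bases before that of Btg2. Windows from 250 bases before to 50 after the start were searched on both strands, where every palindrome also holds the shorter motif. Of the 22 genes lower in the isocortex 18 had such a window. A gene counted if any of its windows held the motif. TGACG was in 14 of the 18 (77.8%), against 34.8% of the tested genes and 23% of all genes with a window. Of single windows, 20.8% held it. The palindrome was in 2 of the 18 (11.1%), against 3.58% of the tested genes, 2.03% of all genes with a window and 1.79% of single windows. Of the 14 genes higher in the isocortex 13 had a window, and TGACG was in 4 (30.8%). Many of the 18 lower genes are immediate early genes, a class known for such sites. Their share is therefore partly given in advance and does not link CREB to the difference between the groups. A match describes the letters of a window and does not show that a factor is bound there.

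The order of the groups was also compared region by region. Dusp1 was lower in both PTX+ABT263-labelled sections than in both Control sections in 10 of the 10 regions where it had at least 20 UMIs, against 24.5% of all gene and region pairs. The same order held for Ddit4 in 10 of 11 regions, Junb in 8 of 9, Arc in 8 of 10, Npas4 in 7 of 7 and Btg2 in 7 of 8. It held for Fosb in 3 of 6 regions, Egr4 in 2 of 8 and Egr2 in 1 of 5. These genes were chosen because they passed in whole-section or isocortex sums of the same sections. Their order by region is therefore partly given in advance, and the regions do not count as independent support. In the thalamus Dusp1 was at 138 and 128 CPM in Control and at 58.7 and 60.4 CPM in the PTX+ABT263-labelled sections (CPM within a region, without TMM scaling). In the striatum Junb was at 172 and 127 CPM against 79.7 and 62.4 CPM. In the test of whether the difference itself differed between the isocortex and the rest of a section, 0 of 13899 genes passed with limma (0%), 1022 had an unadjusted p under 0.05, and without Control section 2 there were 7 that passed. For Junb the log2 fold change in the isocortex minus that in the rest of the section was -0.85 ± 0.29, which did not pass (limma adjusted p = 0.612).

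Klf2, a transcription factor that blood flow induces in endothelium, also fell in the isocortex, from 18.6 and 24.8 CPM to 8.75 and 10.3 CPM (log2 fold change -1.21 ± 0.21, edgeR adjusted p = 0.0180). In whole sections it was at 18.4 and 25.6 CPM against 9.18 and 12.9 CPM (edgeR adjusted p = 0.170). Of the 15 nitric oxide and flow-responsive genes tested in the isocortex, Klf2 was the gene that passed, and the median was -0.11. Cldn5, a tight junction protein of brain endothelium, rose in the isocortex from 34.6 and 36.2 CPM to 48.4 and 54.1 CPM (0.53 ± 0.10, edgeR adjusted p = 0.0417). It was the gene that passed of the 34 endothelial and barrier genes tested there, of which 8 were higher and 1 lower at an unadjusted p of 0.05, and their median was 0.11. Cldn5 did not pass in 7 of 13 alternative isocortex fits. In whole sections Cldn5 was at 42.9 and 33.8 CPM in Control against 48.2 and 46.7 CPM (without TMM scaling) and did not pass.

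Genes of interneurons and myelin were among those that rose in the isocortex. Pvalb, the calcium buffer of fast-spiking interneurons, rose from 240 and 251 CPM to 438 and 342 CPM (log2 fold change 0.67 ± 0.12, edgeR adjusted p = 0.0229). Syt2 and Cox6a2, which fast-spiking cells also express, passed as well, so that 3 of the 9 genes of that list rose. Ptgds, a prostaglandin D synthase of meninges and oligodendrocytes, rose from 233 and 363 CPM to 520 and 517 CPM (0.79 ± 0.14, edgeR adjusted p = 0.0180). Ppp1r14a, an inhibitor subunit of myosin phosphatase, rose from 32.8 and 39.6 CPM to 59.3 and 59.1 CPM (0.70 ± 0.11, edgeR adjusted p = 0.0131). Mag, a glycoprotein of myelin, was the gene that passed of 25 myelin genes, at 65.3 and 94.6 CPM in Control against 125 and 120 CPM (0.60 ± 0.12, edgeR adjusted p = 0.0417). For Ptgds and Mag, Control section 1 was the lowest of the 4 sections, and without it Mag no longer passed (0.37, edgeR adjusted p = 0.227).

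**Figure D4:**
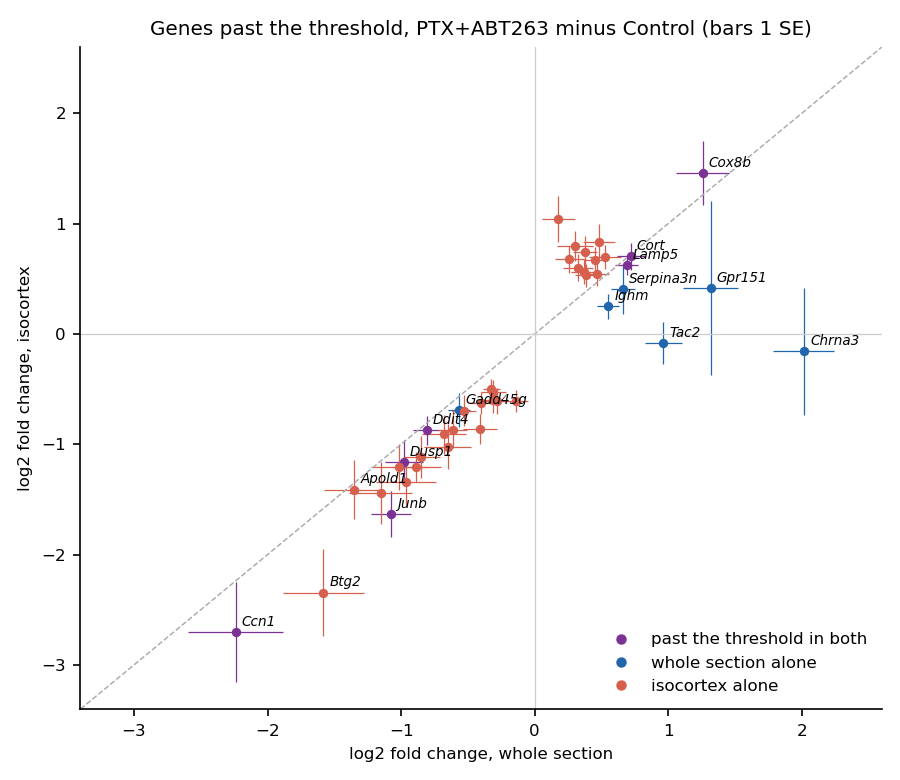
Log2 fold changes of PTX+ABT263 minus Control in whole sections (x) and in the isocortex spots they include (y), with bars of 1 SE, for the 42 of 44 genes past the threshold in either that were tested in both. The habenula genes Chrna3 and Tac2 lie at -0.16 and -0.09 in the isocortex, and Btg2, Ccn1 and Junb lie below the dashed line of equal change.

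Lists of innate immunity and glia were described next. Over all genes tested, 5.08% were higher and 4.76% lower at an unadjusted p of 0.05 in whole sections. In the isocortex the shares were 6.58% and 6.29%. Of 30 interferon response and MHC class I genes, which cells switch on against viruses, none passed in whole sections, 17 were higher and none lower at an unadjusted p of 0.05, and the median log2 fold change was 0.30. Ifitm3, a membrane protein that blocks virus entry, was at 17.8 and 15.7 CPM in Control and 24.7 and 22.6 CPM in the PTX+ABT263-labelled sections (0.50 ± 0.10, edgeR adjusted p = 0.131). Isg15, a ubiquitin-like protein, was at 1.80 and 1.84 CPM against 4.30 and 3.32 CPM (1.07 ± 0.25, edgeR adjusted p = 0.217). The summed level of the list was 438 and 429 CPM in Control, 527 and 507 CPM in the PTX+ABT263-labelled sections, and 436 to 489 CPM in the PTX and PTX+GCV sections. In the isocortex 4 of 29 were higher and none lower at an unadjusted p of 0.05, with a median of 0.24.

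Of 21 microglial genes 6 were higher and none lower at an unadjusted p of 0.05 and none passed, with a median of 0.10. C1qa, a chain of the complement component that tags synapses, was at 74.0 and 72.8 CPM in Control and 93.9 and 94.5 CPM in the PTX+ABT263-labelled sections (0.36 ± 0.07, edgeR adjusted p = 0.119). C1qc was at 60.2 and 67.7 CPM against 77.4 and 82.5 CPM, and Cd68, a lysosomal protein of phagocytes, at 8.19 and 9.51 CPM against 11.4 and 12.5 CPM. Among markers of resting microglia, P2ry12 was at 25.2 and 23.7 CPM in Control against 21.7 and 22.98 CPM (-0.13, edgeR adjusted p = 0.741). Cx3cr1 overlapped between the groups, at 23.03 and 20.3 CPM against 19.8 and 20.99 CPM. Of 23 genes of reactive glia and activated white matter Serpina3n passed, 10 were higher and 1 lower at an unadjusted p of 0.05, and the median was 0.24. Of 21 astrocyte genes none passed, 2 were higher and 4 lower at an unadjusted p of 0.05 (median 0.018), and of 10 genes of oligodendrocyte precursors none passed and 1 was lower (median -0.094). In the list of reactive glia Itgax, an integrin of activated microglia, was at 0.309 and 0.419 CPM against 1.06 and 1.09 CPM (1.51 ± 0.37, edgeR adjusted p = 0.252). Within the isocortex 2 of 18 reactive glia genes and 3 of 21 microglial genes were higher at an unadjusted p of 0.05. None of these genes was lower at that threshold or passed, and the medians were 0.091 and 0.056.

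**Figure D5:**
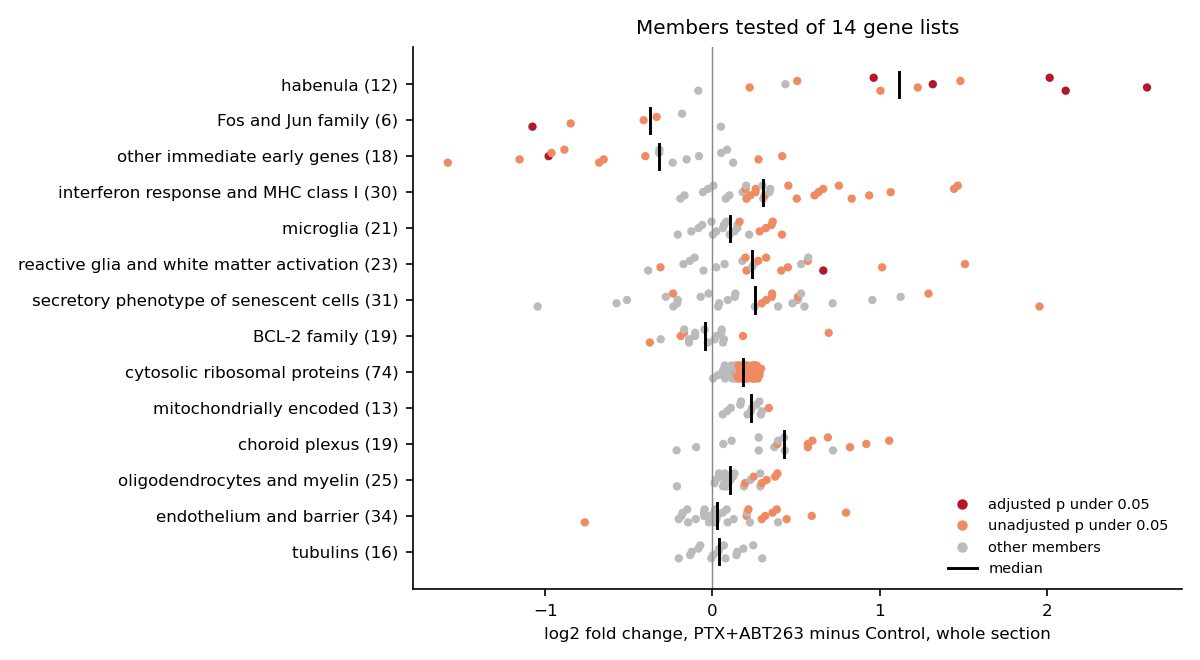
Log2 fold changes of PTX+ABT263 minus Control in whole sections for the tested members of 14 gene lists, with the number tested in parentheses and a black bar at each median. The 14 are a selection from 43 lists, made with results of these data known. The medians are 1.12 for the habenula list, 0.30 for the interferon list and -0.37 for the Fos and Jun list, and 5 habenula genes, Junb, Dusp1 and Serpina3n are past the adjusted threshold.

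The genes of the senescence panel used in the study showed no difference that passed. Of its 10 genes none passed the adjusted or the unadjusted threshold in whole sections, with a median log2 fold change of 0.053 and values from -0.31 to 0.66. Cdkn2a, which encodes p16, was at 0.103 and 0.161 CPM in Control and 0.251 and 0.186 CPM in the PTX+ABT263-labelled sections (0.66 ± 0.59, edgeR adjusted p = 0.756). Cdkn1a, the p21 gene, was at 12 and 14.2 CPM against 12.8 and 14.8 CPM, and the tumour suppressor Trp53 at 14.4 and 16.9 CPM against 15.1 and 17.5 CPM. Prodh and Hmga1 were at 21.3 and 21.8 CPM against 24.9 and 23.4 CPM and at 27.2 and 30.0 CPM against 31.9 and 30.8 CPM. Chek1 was at 0.721 and 0.516 CPM against 0.865 and 0.776 CPM, and Chek2 at 1.80 and 1.90 CPM against 1.65 and 1.65 CPM. The groups of Cdkn1a, Trp53, Bmi1, Tnfrsf10b and Dao overlapped.

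Cdkn2a was present in 2 of 2346 and 5 of 2571 Control spots and in 9 of 2817 and 6 of 2687 spots of the PTX+ABT263-labelled sections. The shares were 0.0853% and 0.194% against 0.319% and 0.223%, with exact 95% binomial intervals of 0.0103 to 0.308% and 0.0632 to 0.453% in Control and of 0.146 to 0.606% and 0.0820 to 0.485% in the PTX+ABT263-labelled sections. These intervals cover counting error only and overlap. The exact two-sided permutation test over 4 sections gave p = 0.333, the smallest it can give. The PTX sections had 0.625% and 0.329% and the PTX+GCV sections 0.108% and 0.141%. A spot with fewer UMIs is less likely to show a rare transcript, and the shares were not adjusted for this. The median UMIs per spot were 7583 and 12655 in Control and 13449 and 12259 in the PTX+ABT263-labelled sections. They were 15715.5 and 13442 in PTX and 9006 and 12657 in PTX+GCV. In the isocortex the shares were 0.174% and 0.847% in Control against 0.687% and 0.624% (exact permutation test, p = 1).

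Genes of the senescence-associated secretory phenotype were described apart from the panel. Of 31 such genes tested none passed, 7 were higher and 1 lower at an unadjusted p of 0.05, and the median was 0.25. Igfbp7, Igfbp6 and Igfbp2, which bind insulin-like growth factors, were at 32.6 and 31.99, 59.6 and 59.2, and 43.3 and 45.1 CPM in Control against 43.3 and 39.3, 80.4 and 89.0, and 61.5 and 51.5 CPM in the PTX+ABT263-labelled sections (edgeR adjusted p = 0.143, 0.167 and 0.252). Cxcl10, a chemokine induced by interferon, was at 0.464 and 0.129 CPM against 1.09 and 0.963 CPM (edgeR adjusted p = 0.288). In the BCL-2 family, the targets of ABT263 and their partners, 2 genes were higher and 3 lower at an unadjusted p of 0.05. Hrk, a BH3-only activator of cell death in neurons, was at 14.1 and 16.1 CPM against 12.2 and 11.2 CPM, and the anti-apoptotic Mcl1 at 49.1 and 48.6 CPM against 42.9 and 42.7 CPM (edgeR adjusted p = 0.335 and 0.398). Of the 16 tubulin genes, whose products PTX binds, none was past an unadjusted p of 0.05, and the median was 0.038.

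Ribosomal and mitochondrial genes were described as lists. None of the 74 cytosolic ribosomal protein genes passed in whole sections, but 52 were higher and none lower at an unadjusted p of 0.05, with a median log2 fold change of 0.18. Over all genes tested, 5.08% were higher at that threshold in whole sections and 6.58% in the isocortex. Among 13 genes encoded in the mitochondrial genome, 1 was higher at an unadjusted p of 0.05 in whole sections, with a median of 0.23, and 12 in the isocortex, with a median of 0.45. In whole sections these 13 genes summed to 120512 and 149134 CPM in Control against 152324 and 168152 CPM, so Control section 2 lay close to PTX+ABT263-labelled section 1. Of the 74 nuclear genes of oxidative phosphorylation 8 were higher in whole sections (median 0.090) and 51 in the isocortex (median 0.22). The choroid plexus list, in which 8 of 19 genes were higher at an unadjusted p of 0.05 and none passed (median 0.43), summed to 3215 and 2855 CPM in Control and 4867 and 2953 CPM in the PTX+ABT263-labelled sections. Without the spots of the habenula and choroid plexus clusters Cox8b still passed (1.25, edgeR adjusted p = 0.0403). The choroid plexus cluster left out held 112 spots over all sections, while a finer clustering put 195 spots in its choroid plexus cluster. Whether choroid plexus tissue remained in the kept spots was not tested, so this fit does not place the rise of Cox8b outside the choroid plexus.

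The 15 genes of the whole-section comparison were also set beside PTX alone and PTX+GCV, whose contrasts share the Control or the PTX+ABT263 sections and were fitted together. For the habenula gene Chrna3 the log2 fold change from Control was 1.67 in PTX, 1.83 in PTX+GCV and 2.02 in PTX+ABT263, and that from PTX to PTX+ABT263 was 0.34. For Lamp5 the values were 0.61 in PTX, 0.33 in PTX+GCV and 0.69 in PTX+ABT263. For Junb they were -0.65, -0.79 and -1.08, and for Ddit4 -0.47, -0.42 and -0.81. For Serpina3n they were 0.16, 0.13 and 0.66, for Ighm 0.31, -0.23 and 0.55, and for Cox8b -0.18, -1.30 and 1.26. Of the 15 genes, Cox8b passed the test against PTX (1.44, edgeR adjusted p = 0.0239), and for the other 14 genes that difference did not pass. A difference that did not pass is not shown to be absent.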

How the data were processed

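The files hold UMI counts per gene and spot, which the authors made with Space Ranger (version 1.2.1 per the file headers, mm10) and deposited unnormalised. No column belonged to a sample of another series (0). UMIs were summed per section over the kept spots, and the 8 sections were fitted together with edgeR 4.0.16 (filterByExpr, TMM, quasi-likelihood test) in R 4.3.3, with Benjamini-Hochberg adjustment over all genes tested and a threshold of 0.05. CPM were TMM-scaled for whole sections and isocortex, and unscaled within other regions and clusters. Regions came from 13 clusters of all spots (Seurat 5.3.0, SCTransform, 20 components, resolution 0.15), named from marker lists. The isocortex difference was set against the rest of each section with limma 3.58.1 on log2 CPM (prior count 2). DESeq2 1.42.0 was an alternative.

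Chromosomes followed GENCODE M21, which matched 32235 features, and promoters RefSeq on GRCm38.p6. Figures used matplotlib 3.10.9. Scripts were tested on simulated data. Named genes were up to 15 higher and 15 lower genes with the smallest adjusted p past 0.05 and non-overlapping sections, up to 5 in each direction for the isocortex, up to 4 with the smallest p of each of 43 lists, and the study's senescence panel of 10 genes. P2ry12, Cx3cr1, Nr4a1, Ier2, Snap25 and Alb fell outside this rule and were chosen after values were seen. The comparison, its members and the lists were chosen with earlier results of these data known. Replicate numbers did not pair sections: correlations of same-numbered deviations were -0.107 to 0.0564. Replicate sections differed by more than counting noise (chi-square per degree of freedom 15.7 to 25.0). No doublet caller was run, since spots hold several cells.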

Additional observations from a re-analysis of the deposited data

Results flagged for a closer look

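Xist, a gene of chromosome X that was outside the comparison, averaged 19.5 CPM over both sections labelled PTX+ABT263, while it was at 0 in both Control sections. The labels give male mice for all 4 sections.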

How the results depend on the processing

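In whole sections, the 10 higher genes became 32 with DESeq2, 246 with no filter on low counts, 4 with the replicate block, 3 with equal spots of each cluster and 6 without habenula and choroid plexus spots. The 5 lower genes became 25 with DESeq2, 20 with total counts in place of TMM, 212 with no filter, 10 with sections thinned to the smallest total of UMIs, 9 with chromosomes X and Y kept and 10 with crossed replicate numbers as a replicate block. Leaving out a section gave 1 to 14 higher and 1 to 17 lower genes. In the isocortex, the 14 higher genes became 89 with DESeq2, 182 with no filter and 7 with only the 4 sections compared, and leaving out a section gave 2 to 63. The 22 lower genes became 240 with total counts, which moved the median of all genes to -0.13, 144 with no filter, and 3 to 102 on leaving out a section. The replicate block gave 12 and 23 in the isocortex. The limma test of isocortex against rest gave 0 to 7 genes on leaving out a section, with 7 without Control section 2. The cause of these changes was not tested.

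No gene that had passed changed direction. Among panel genes that had not passed, the log2 fold change changed sign with total counts for Trp53 (-0.014) and Cdkn1a (-0.0045), with equal spots for Cdkn1a (-0.073), and when thinned for Dao (0.059). On leaving out a section it ran from -0.12 to 0.011 for Bmi1, -1.25 to 0.30 for Tnfrsf10b, -0.056 to 0.18 for Trp53, -0.053 to 0.20 for Cdkn1a and -0.53 to 0.73 for Dao. Removing habenula and choroid plexus spots, equal isocortex spots and crossed numbers were chosen after seeing the data. With 2 sections a group, and fewer UMIs in Control section 1 than in the other 3, small differences in genes of low counts were not detectable.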
